A study of Mus musculus with 32 samples.

Results

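The 44 genes described here encode lysosomal enzymes and lysosomal membrane proteins, and they were taken by symbol from the 33280 genes of the WT stroke experiment, with earlier results of these data known. They comprise 10 cysteine cathepsins with legumain, 3 other proteases, 10 glycan-degrading enzymes, 5 genes of lipid handling, 8 membrane proteins, 6 genes of the proton pump and 2 regulators. Whole brain tissue and sorted subdural CNS-associated macrophages (sdCAMs), the perivascular and leptomeningeal macrophages of the brain surface, were profiled by bulk RNA-seq from the ipsilateral (lesioned) and the contralateral hemisphere of 8 wild-type mice. The 4 BLZ945 mice had received 200 mg per kg body weight of BLZ945, an inhibitor of the receptor CSF1R on which these macrophages depend, for 7 days, and the 4 control (CTL) mice had received vehicle. All 8 mice then underwent thromboembolic middle cerebral artery occlusion 8 weeks after treatment and were analyzed at +1 d, so the contralateral hemisphere was also that of a mouse with stroke, and no sham-operated brain was among these libraries. The WT mice of the study were C57BL/6JCrl animals of both sexes, 10 ± 3 weeks old at the start of treatment, while age and sex of each mouse are not given in the sources used here. The sdCAMs were sorted from brain without choroid plexus. The mice are named by their labels, A2, A3, A4 and B1 for CTL and C2, C3, C4 and D1 for BLZ945.

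Lysosomes are acidic organelles in which endocytosed and phagocytosed material and worn-out cell parts are broken down. A proton pump, the V-ATPase, acidifies the lumen, acid hydrolases degrade proteins, glycans and lipids, and heavily glycosylated membrane proteins shield the limiting membrane and export the products. Macrophages and microglia carry large lysosomal loads, and the transcription factor TFEB is known to activate many of these genes through a short promoter element, the CLEAR motif.

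The motif holds the E-box CACGTG, and its strictest core reads TCACGTGA. Both letter strings are their own reverse complement, so a search of either strand gives the same matches, and every match of the longer string is also a match of the shorter. Promoters of 38 members were found by symbol among RefSeq promoters of GRCm38.p6, with 250 bases before and 50 after each start site, which gave 44 promoters. CACGTG was found in the promoters of 15 of these 38 genes (39.5%), compared with 8.09% of all 27025 genes with such a window. TCACGTGA was found in 7 of them (18.4%), compared with 1.12% of all genes. The 7 were Atp6v0d1, Atp6v1a, Cln3, Ctsa, Ctsd, Gla and Mcoln1. The 150 bases up to the start site are shown for 5 members, the first 3 from members called in sdCAMs below and the last 2 from members not called there, with the matches in capitals. The windows lie at chr2:164833623-164833772 (plus strand) for Ctsa, chr7:142387828-142387977 (minus strand) for Ctsd, chr8:13159011-13159160 (plus strand) for Lamp1, chr8:3500369-3500518 (plus strand) for Mcoln1 and chr16:44139260-44139409 (minus strand) for Atp6v1a.
Ctsa: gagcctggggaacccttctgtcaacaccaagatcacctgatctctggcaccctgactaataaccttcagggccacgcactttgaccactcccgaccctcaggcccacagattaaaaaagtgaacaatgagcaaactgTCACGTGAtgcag
Ctsd: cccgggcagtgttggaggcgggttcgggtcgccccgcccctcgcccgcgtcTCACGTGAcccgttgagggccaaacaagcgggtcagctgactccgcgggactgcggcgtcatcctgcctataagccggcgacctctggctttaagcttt
Lamp1: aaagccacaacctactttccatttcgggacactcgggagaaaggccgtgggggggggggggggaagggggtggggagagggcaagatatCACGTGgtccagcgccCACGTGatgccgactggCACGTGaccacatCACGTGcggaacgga
Mcoln1: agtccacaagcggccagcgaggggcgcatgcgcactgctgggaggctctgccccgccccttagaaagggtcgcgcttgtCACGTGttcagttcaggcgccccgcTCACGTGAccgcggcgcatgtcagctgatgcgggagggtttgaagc
Atp6v1a: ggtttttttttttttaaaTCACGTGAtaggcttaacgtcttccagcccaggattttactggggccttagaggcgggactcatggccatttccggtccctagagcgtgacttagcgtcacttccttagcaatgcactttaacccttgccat
The window of Lamp1 held 4 copies of the E-box and no copy of the longer core. In Ctsa the core began 13 bases before the start site, and a second copy followed within the first bases after it.

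Degraded RNA was noted by the submitters for 2 sorted samples, and the ipsilateral sdCAM libraries of A3 and C2, with only 54055 and 55155 counts, were left out, which gave 16 tissue and 14 sdCAM libraries. In the libraries kept, total counts on genes were between 9288717 and 12781505 in tissue and between 7397393 and 11081409 in sdCAMs. The tissue libraries of A3 carry opposite hemisphere names in the table header and in the sample titles, and the titles were followed. Values are CPM, the counts set to a common library size after TMM scaling, with the SD between mice. A gene was called differentially expressed (DEG) at an adjusted p under 0.05 in edgeR's quasi-likelihood test over all genes.

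The members took a far larger share of the counts in sdCAMs than in tissue. In tissue their summed counts made up 0.778% ± 0.024 of the library in the CTL contralateral and 0.804% ± 0.043 in the CTL ipsilateral group (SD, n = 4 each). The BLZ945 tissue groups lay at 0.791% ± 0.035 and 0.819% ± 0.044 (SD, n = 4 each). In sdCAMs the share was 5.02% ± 0.75 in the CTL contralateral (n = 4) and 6.83% ± 0.75 in the CTL ipsilateral group (SD, n = 3). It was 4.32% ± 0.83 in the BLZ945 contralateral (n = 4) and 6.88% ± 0.50 in the BLZ945 ipsilateral group (SD, n = 3). No sdCAM library of an ipsilateral hemisphere, from 6.01% to 7.46%, lay below a contralateral one, from 3.09% to 5.91%. In such bulk samples, fewer cells of a type and less RNA per cell cannot be told apart.

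Per kilobase of annotated exon, the levels in CTL contralateral sdCAMs were highest for Ctss, a cysteine protease of the endosomal pathway, at 4541 CPM per kb. Ctsd, the main aspartic protease of lysosomes, followed at 2716 CPM per kb, then Ctsb at 1297 and Lgmn, an asparagine-specific protease, at 1287. The lowest level was that of Atp6v0d2, a proton pump subunit best known from osteoclasts, at 0.060 CPM per kb. In CTL contralateral tissue the order differed, with Psap, the precursor of the saposins that help degrade sphingolipids, on top at 726 CPM per kb, followed by the pump subunits Atp6v1b2 at 155 and Atp6v0d1 at 149. Exon lengths are those of GENCODE M21, in which Ctsd shares 34.4% of its exon bases with another gene on the same strand and Ctsl 26.8% with an antisense gene, so reads of these 2 members may have been split or lost in counting.

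**Figure D1:**
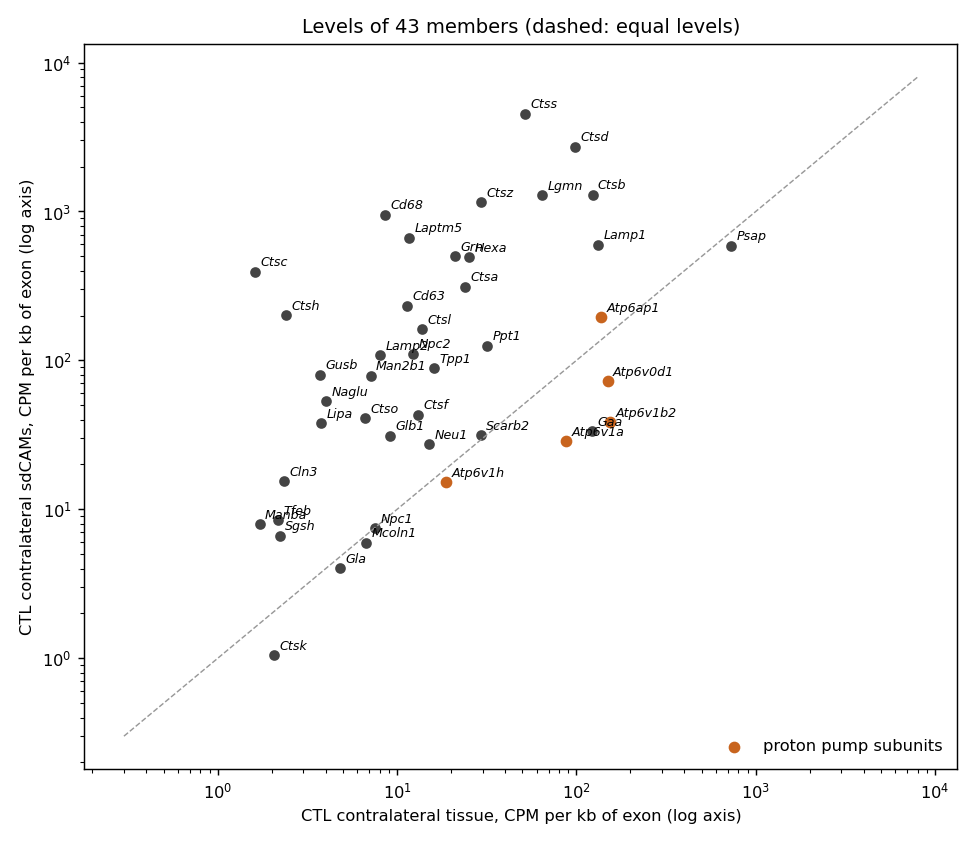
Mean level of 43 members in CTL contralateral sdCAMs (vertical) against CTL contralateral tissue (horizontal), in CPM per kb of exon on log axes, each point a gene, the dashed line equal levels, orange the proton pump. Most hydrolases lie above the line, whereas Gaa, Gla, Psap, Npc1, Ctsk, Mcoln1 and the pump subunits Atp6v0d1, Atp6v1a, Atp6v1b2 and Atp6v1h lie below it, and Atp6v0d2, at 0 in this tissue group, is not drawn.

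Compared with tissue in a single fit of all 30 libraries, contralateral sdCAMs had 32 members higher and 8 lower, where 33.2% of all 19389 genes tested were called higher and 39.4% lower. In the ipsilateral hemisphere 34 were higher and 5 lower, against 27.8% and 46.3% of all genes. The median log2 fold change of the members was 2.22 contralaterally and 2.88 ipsilaterally, compared with -0.15 and -0.75 over all genes tested. Ctsc, which activates serine proteases of immune granules, showed the largest contralateral difference, with a log2 fold change of 7.75 (SE 0.24) from a mean of 9.87 CPM in tissue to 2124 in sdCAMs. Cd68, a scavenger receptor family member of macrophage lysosomes, followed at 6.504 (SE 0.20), and Ctsh at 6.14 (SE 0.14). Sorting and RNA input also differed between sdCAMs and tissue. In this comparison, and in the shares and levels above, they cannot be told apart from the sample type.

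The members lower in sdCAMs were mostly not proteases. Contralaterally, the pump subunits Atp6v1b2, Atp6v1a, Atp6v0d1 and Atp6v1h were lower, with log2 fold changes of -1.97, -1.48, -1.15 and -0.35. Atp6ap1, an accessory protein of the pump, was higher instead (0.36, SE 0.08). Gaa, which degrades glycogen, was lower by a log2 fold change of -1.98 (SE 0.14), and Psap, the lysosomal calcium channel gene Mcoln1 and the cholesterol transporter gene Npc1 were lower by -0.45, -0.42 and -0.29. In the ipsilateral comparison Gaa, Atp6v1b2, Atp6v1a and Atp6v0d1 were again lower, and Ctsk, known for bone resorption, was lower at 0.738 CPM in sdCAMs compared with 3.32 in tissue. The V-ATPase also serves synaptic vesicles in neurons, and tissue libraries carried 5902 to 9112 CPM of 5 neuronal markers, compared with 0 to 85.9 in sdCAMs. Its part in these values was not tested.

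The identity of the sorted cells was checked with marker lists. All 8 border macrophage markers were detected in every sdCAM group, with 1548 to 9236 CPM summed per library, compared with 6.79 to 21.2 in tissue. The 7 microglia markers were nevertheless higher than these in 13 of the 14 sdCAM libraries, at 4932 to 18686 CPM summed. In CTL mice they summed to 9598 to 13498 contralaterally and 8243 to 18686 ipsilaterally. In BLZ945 mice the ranges were 4932 to 9053 and 6163 to 13315, so that CTL and BLZ945 mice did not overlap contralaterally. The hemispheres also differed in other cells. The 5 endothelial markers summed to 641 to 2107 CPM in contralateral and 35.0 to 169 in ipsilateral sdCAM libraries, with no overlap. The 5 oligodendrocyte markers summed to 599 to 5357 contralaterally and 90.8 to 660 ipsilaterally. The 5 choroid plexus markers ranged from 30.7 to 37321 contralaterally and from 0.502 to 1499 ipsilaterally, highest in the contralateral libraries of C4 and C3. The 5 monocyte markers summed to 93.1 to 160 contralaterally and 242 to 344 ipsilaterally in CTL mice, without overlap, and to 167 to 853 and 201 to 377 in BLZ945 mice. The 8 neutrophil markers overlapped, at 255 to 2987 contralaterally and 310 to 1209 ipsilaterally, and the red blood cell markers ranged from 73.1 to 1159 and from 7.10 to 150. Astrocyte markers ranged from 121 to 870 and from 69.8 to 235. Border macrophage markers ranged from 1548 to 5739 contralaterally and from 4548 to 9236 ipsilaterally. The part of these cells in the values below was not tested.

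In sdCAMs most members were higher on the side of the stroke. Averaged over both treatments, 24 of 44 members rose in ipsilateral sdCAMs and 0 fell, where 4.98% of all 18297 genes tested rose and 11.2% fell, but after scaling to 16 pan-macrophage genes only Ctsb and Gusb remained among the 24 and 3 members fell, where 0.191% of all genes rose and 27.4% fell. The median log2 fold change was 0.55 for the members and -0.16 for all genes tested. Within BLZ945 mice 13 members rose and 0 fell, compared with 1.2% and 4.41% of all genes, and under the pan-macrophage scaling 0 rose and 4 fell, compared with 0.00547% and 19.6% of all genes. Within CTL mice 0 members were called, compared with 0.426% of all genes called higher and 2.36% lower. In these mice 19 members passed an unadjusted p under 0.05 and DESeq2 called 10. The shares of all genes that go with these 2 counts are not given here. The median log2 fold change was 0.62 for BLZ945 and 0.44 for CTL.

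That scaling rested on 16 genes, among them Csf1r, Aif1, Cx3cr1, C1qa, C1qb, C1qc, Fcer1g, Tyrobp, Ptprc, Spi1, Itgam, Fcgr3, Trem2, Ly86 and Irf8, which are shared by macrophages and microglia, of which none is a member. The list was written after the values had been seen. With TMM scaling 12 of these 16 genes were themselves higher in ipsilateral sdCAMs, with a median log2 fold change of 0.65, close to that of the members. Their summed level, relative to the library total without TMM, was 32623 ± 4317 CPM in CTL contralateral (n = 4) and 40003 ± 4631 in CTL ipsilateral sdCAMs (SD, n = 3). In BLZ945 mice it was 23798 ± 5881 contralaterally (n = 4) and 40031 ± 4827 ipsilaterally (SD, n = 3). The summed members divided by these 16 genes gave 1.54 ± 0.058 and 1.71 ± 0.058 in CTL, and 1.84 ± 0.17 and 1.73 ± 0.12 in BLZ945 mice, contralateral before ipsilateral (SD, n = 4 and 3). In CTL mice the ipsilateral ratios, from 1.64 to 1.75, lay above the contralateral ones, from 1.45 to 1.57, whereas in BLZ945 mice they overlapped. With the pan-macrophage scaling the median log2 fold change was -0.09 for the members and -0.81 for all genes tested, compared with 0.55 and -0.16 with TMM.

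**Figure D2:**
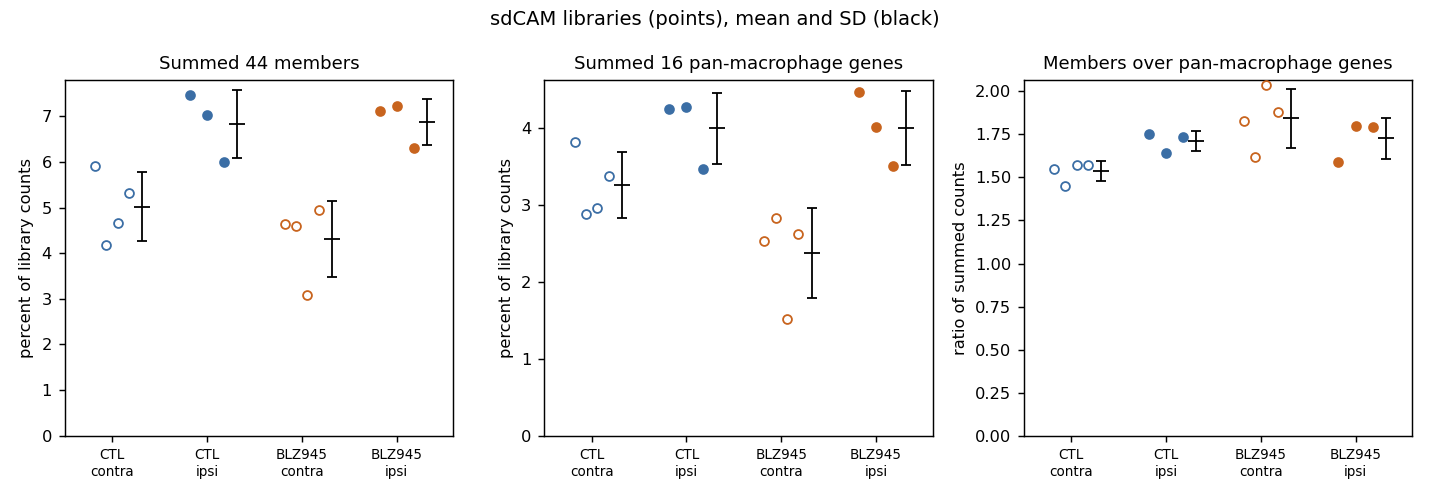
Summed counts of the 44 members (left) and of 16 pan-macrophage genes (middle) in percent of library counts, and their ratio (right), in 14 sdCAM libraries (points, open contralateral, filled ipsilateral) with mean and SD in black. Both sums are higher ipsilaterally in BLZ945 mice, and their ratio overlaps there.

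Among the cysteine cathepsins, Ctsb, Ctsc, Ctsl, Ctss, Ctsz and Lgmn rose in ipsilateral sdCAMs in the average of both treatments with TMM scaling, of which Ctsb alone was called after pan-macrophage scaling. Ctsb, an endo- and exopeptidase, was at 10263, 5377, 6392 and 9360 CPM in contralateral libraries of A2, A3, A4 and B1, and at 16552, 14302 and 13388 in ipsilateral libraries of A2, A4 and B1. In BLZ945 mice it was at 7073, 6318, 4536 and 9240 contralaterally in C2, C3, C4 and D1, and at 13666, 14886 and 14878 ipsilaterally in C3, C4 and D1. The hemispheres did not overlap in either treatment, and the log2 fold change was 1.00 (SE 0.18, adjusted p = 0.0019) with TMM and 0.40 (SE 0.13, adjusted p = 0.034) with the pan-macrophage scaling.

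Ctsc showed the largest estimate among called members, with a log2 fold change of 1.02 (SE 0.20, adjusted p = 0.0029). It was between 1449 and 3095 CPM in contralateral and between 3499 and 5079 in ipsilateral libraries, again without overlap. Ctsz, a carboxypeptidase, was at 1966, 1482, 1506 and 1707 CPM contralaterally in CTL and at 1742, 1545, 974 and 1724 in BLZ945 mice. Its ipsilateral values were 3208, 2831 and 2333 in CTL and 3007, 2894 and 2113 in BLZ945 mice, all above the contralateral ones (log2 fold change 0.79, SE 0.16, adjusted p = 0.0034, and 0.16, adjusted p = 0.28, with the pan-macrophage scaling).

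Lgmn had a contralateral mean of 2991 ± 323 CPM in CTL and 2215 ± 550 in BLZ945 mice (SD, n = 4 each). Its ipsilateral means were 4683 ± 430 and 4349 ± 798 (SD, n = 3 each), with no overlap of hemispheres and a log2 fold change of 0.81 (SE 0.15, adjusted p = 0.0026), which was 0.18 (adjusted p = 0.20) with the pan-macrophage scaling. Ctss, at 5822 CPM on average contralaterally and 9204 ipsilaterally, overlapped between the hemispheres, since D1 ipsilateral (6900) and B1 ipsilateral (7195) lay below A2 contralateral (7401). Its log2 fold change was 0.66 (SE 0.17, adjusted p = 0.014). Ctsf, Ctsh, Ctso and Ctsk were not called with TMM scaling, and Ctsf was called lower with the pan-macrophage scaling. Ctsk had 0 counts in 4 of the 6 ipsilateral libraries and 1 to 156 in the contralateral ones.

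All 3 other proteases rose with TMM scaling in the average of both treatments, and none was called with the pan-macrophage scaling. Ctsa, a carboxypeptidase that also stabilizes a galactosidase and a sialidase, had a log2 fold change of 0.75 (SE 0.15, adjusted p = 0.0040), and Tpp1, a tripeptidyl peptidase, one of 0.68 (SE 0.14, adjusted p = 0.0041). Ctsd, with the single core match shown above, was at 7548, 5408, 6389 and 6194 CPM contralaterally in CTL and at 5025, 6114, 3383 and 6032 in BLZ945 mice. Its ipsilateral values were 9206, 10385 and 5905 in CTL and 10412, 8104 and 6547 in BLZ945 mice, so that B1 and D1 ipsilateral lay within the contralateral range. The log2 fold change was 0.56 (SE 0.18, adjusted p = 0.044) with TMM and -0.08 (adjusted p = 0.65) with the pan-macrophage scaling.

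Of the glycan-degrading enzymes, 6 of 10 rose with TMM scaling, and Gusb alone was called with the pan-macrophage scaling as well. Gusb, the beta-glucuronidase of glycosaminoglycan breakdown, was at 449, 278, 293 and 437 CPM contralaterally in CTL and at 339, 403, 236 and 424 in BLZ945 mice. Ipsilaterally it was at 749, 655 and 592 in CTL and at 889, 855 and 569 in BLZ945 mice. All ipsilateral libraries were above all contralateral ones, with a log2 fold change of 1.00 (SE 0.17, adjusted p = 0.0013) with TMM and 0.38 (SE 0.13, adjusted p = 0.037) with the pan-macrophage scaling. Man2b1, a mannosidase, and Naglu, a heparan sulfate enzyme, had log2 fold changes of 0.76 and 0.68, and those of Glb1, Hexa and Gaa were 0.57, 0.54 and 0.48 with TMM and -0.07, -0.08 and -0.17 with the pan-macrophage scaling.

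Hexa, a subunit of beta-hexosaminidase, overlapped between hemispheres in CTL mice, where it was at 1291, 704, 883 and 1063 CPM contralaterally and at 1122, 1516 and 958 ipsilaterally. In BLZ945 mice it was at 586, 793, 493 and 883 contralaterally and at 1221, 1094 and 1265 ipsilaterally, without overlap. Gla, Manba, Neu1 and Sgsh were not called.

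Among the genes of lipid handling, Ppt1, which removes fatty acids from proteins, and Lipa, the acid lipase of cholesteryl esters, rose with TMM scaling but not with the pan-macrophage scaling. Ppt1 had a log2 fold change of 0.75 (SE 0.16, adjusted p = 0.0051). Lipa was at 332, 210, 241 and 246 CPM contralaterally and at 292, 230 and 316 ipsilaterally in CTL mice, where the hemispheres overlapped. In BLZ945 mice Lipa was at 219, 228, 163 and 278 contralaterally and at 359, 411 and 416 ipsilaterally, and the log2 fold change was 0.83 (adjusted p = 0.030) within these mice and 0.48 (SE 0.15) in the average. Npc2, which hands over cholesterol in the lumen, was at 602 ± 110 and 732 ± 118 CPM in CTL and at 592 ± 55.8 and 803 ± 27.3 in BLZ945 mice, contralateral before ipsilateral (SD, n = 4 and 3), and was not called (adjusted p = 0.062). Psap (adjusted p = 0.11) and Npc1 (adjusted p = 0.56) were not called either.

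The membrane proteins Cd63, Cd68, Lamp1, Lamp2 and Laptm5 rose with TMM scaling, and none of them was called with the pan-macrophage scaling. Cd68 was at 1586, 872, 951 and 1362 CPM contralaterally in CTL and at 1079, 1075, 547 and 1353 in BLZ945 mice. Ipsilaterally it was at 2098, 2054 and 1622 in CTL and at 2338, 2257 and 2087 in BLZ945 mice. The hemispheres were separated, B1 ipsilateral and A2 contralateral lying closest, and the log2 fold change was 0.91 (SE 0.19, adjusted p = 0.0049) with TMM and 0.31 (adjusted p = 0.075) with the pan-macrophage scaling.

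Lamp2, which with Lamp1 makes up much of the lysosomal membrane coat, was at 1100, 909, 1056 and 1068 CPM contralaterally in CTL and at 898, 1033, 1127 and 1136 in BLZ945 mice. Its ipsilateral values were 1466, 1682 and 1434 in CTL and 1462, 1579 and 1418 in BLZ945 mice. All of these exceeded the contralateral values, at a log2 fold change of 0.53 (SE 0.11, adjusted p = 0.0044) with TMM and -0.13 (adjusted p = 0.57) with the pan-macrophage scaling. Lamp1, with 4 E-boxes in its promoter, had a log2 fold change of 0.47 (SE 0.14, adjusted p = 0.032), and that of Cd63, a tetraspanin of late endosomes, was 0.49 (SE 0.15, adjusted p = 0.042). Both were negative with the pan-macrophage scaling, at -0.16 and -0.19. Laptm5, a membrane protein of immune cell lysosomes, was at 2520 ± 612 and 3393 ± 140 CPM in CTL and at 1768 ± 594 and 3505 ± 390 in BLZ945 mice, contralateral before ipsilateral (SD, n = 4 and 3), with a log2 fold change of 0.71 (SE 0.19, adjusted p = 0.020). Scarb2, Cln3 and Mcoln1 were not called with TMM, and Scarb2, the sorting receptor of glucocerebrosidase, was called lower with the pan-macrophage scaling (-0.56, adjusted p = 0.011), where the median of all genes was -0.81.

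**Figure D3:**
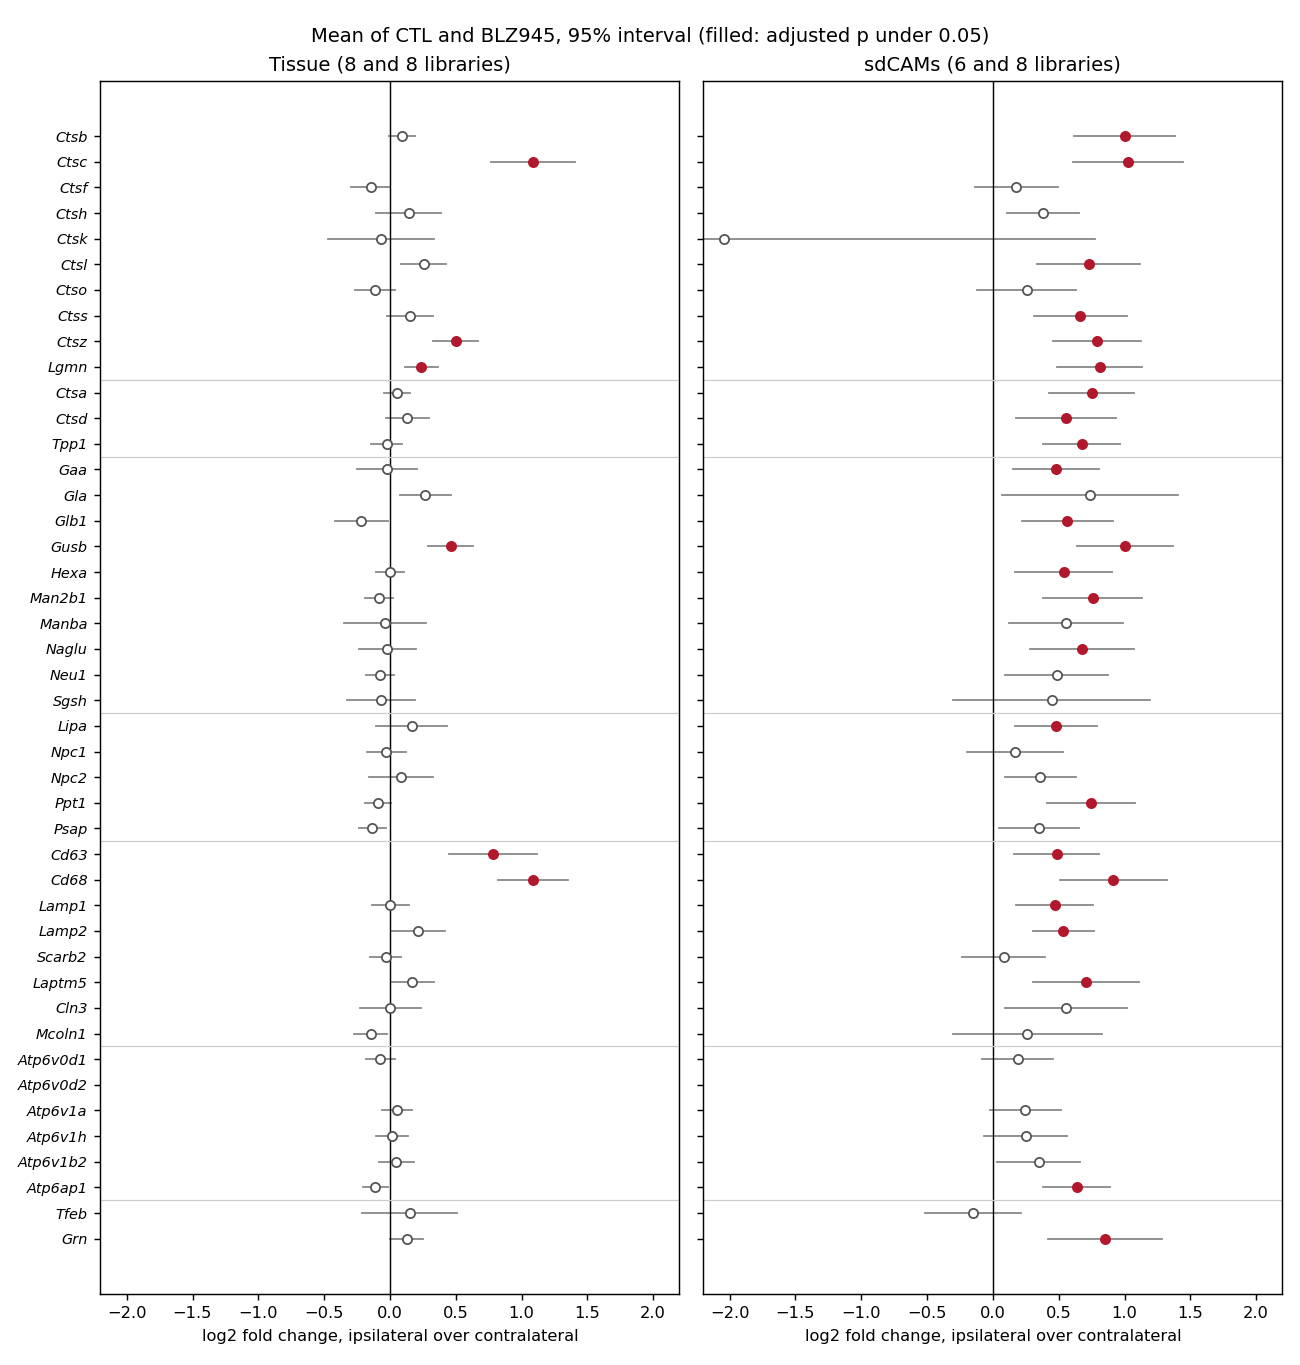
Log2 fold change, ipsilateral over contralateral, with 95% interval, of each member in tissue (left) and sdCAMs (right), averaged over treatments with TMM scaling, grouped by role, filled at an adjusted p under 0.05. In tissue 6 members are filled and in sdCAMs 24, all to the right of 0, although 22 of the 24 are not called after scaling to 16 pan-macrophage genes, and Atp6v0d2 is not drawn and the sdCAM interval of Ctsk runs past the axis.

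Of the 6 proton pump genes among the members, the accessory protein gene Atp6ap1 alone rose in sdCAMs with TMM scaling (0.64, SE 0.12, adjusted p = 0.0027), and its value was 0.01 with the pan-macrophage scaling. Atp6v0d1, a membrane-sector subunit, was at 137, 128, 127 and 129 CPM contralaterally and at 145, 105 and 145 ipsilaterally in CTL mice. In BLZ945 mice it was at 129, 142, 123 and 147 contralaterally and at 151, 214 and 155 ipsilaterally. Its log2 fold change was 0.19 (95% interval -0.08 to 0.46, adjusted p = 0.35). Those of Atp6v1a, Atp6v1h and Atp6v1b2 were 0.25, 0.25 and 0.35, none called. Atp6v0d2 had 0 counts in 7 of the 8 contralateral libraries and 6 in that of B1, and 0 to 22 counts in the ipsilateral libraries, highest in C4, and it was not called (adjusted p = 0.10).

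Of the regulators, Grn, which encodes progranulin, a secreted and lysosomal glycoprotein, rose with TMM scaling. It was at 2219, 1072, 1378 and 2285 CPM contralaterally and at 2212, 3117 and 2428 ipsilaterally in CTL mice, and in BLZ945 mice at 1305, 1635, 803 and 1776 contralaterally and at 3122, 3131 and 2773 ipsilaterally. The hemispheres overlapped in CTL and not in BLZ945 mice, and the log2 fold change was 0.85 (SE 0.20, adjusted p = 0.011) and was not called with the pan-macrophage scaling. Tfeb, the transcription factor itself, was at 48.1 ± 11.4 and 47.9 ± 3.65 CPM in CTL and at 52.2 ± 10.1 and 42.4 ± 4.36 in BLZ945 mice, contralateral before ipsilateral (SD, n = 4 and 3). It was not called with TMM (-0.15, 95% interval -0.52 to 0.21) and was called lower with the pan-macrophage scaling (-0.85, SE 0.25, adjusted p = 0.022). Under either scaling its value lay close to the median of all genes, -0.16 and -0.81.

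**Figure D4:**
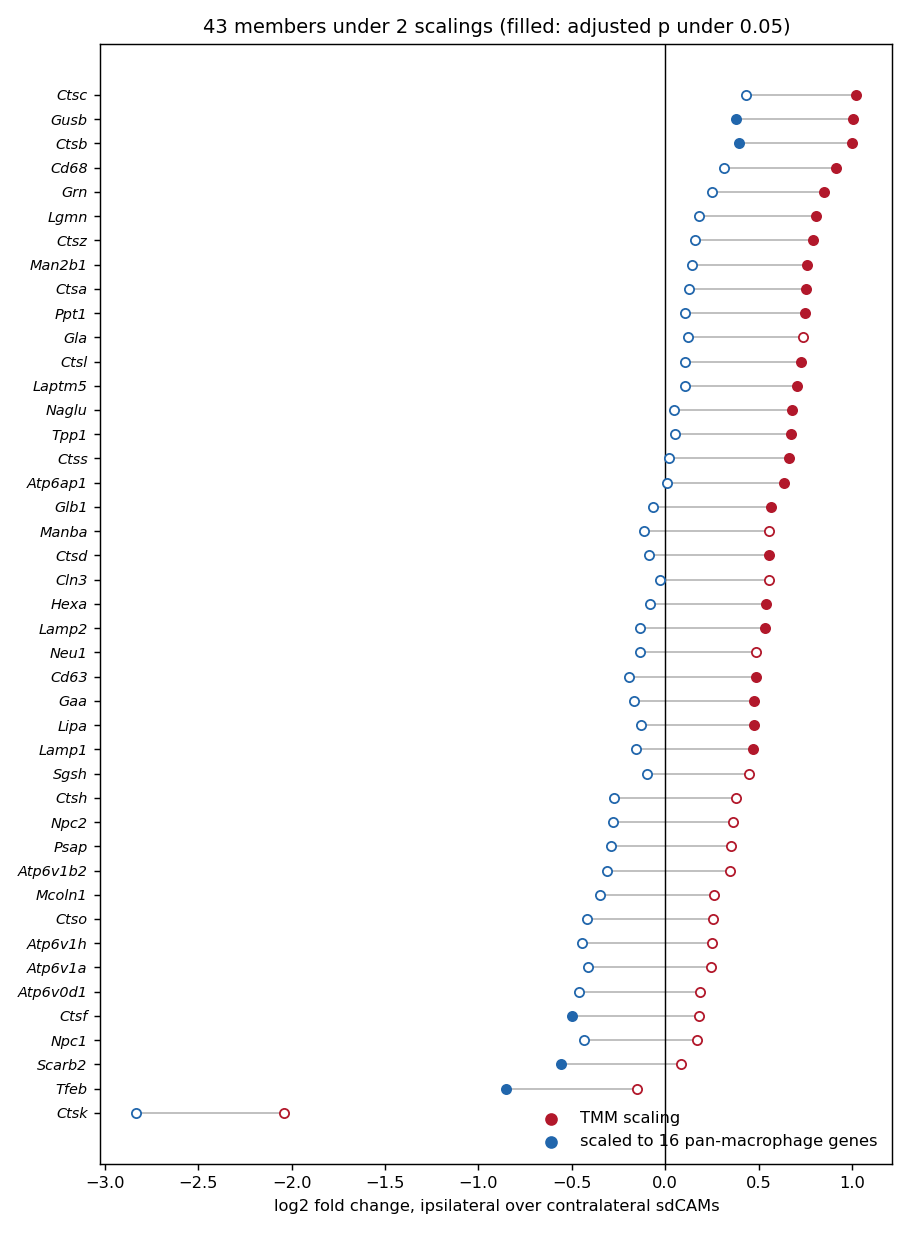
Log2 fold change, ipsilateral over contralateral sdCAMs averaged over treatments, of 43 members (rows, without Atp6v0d2) with TMM scaling (red) and after scaling to 16 pan-macrophage genes (blue), filled at an adjusted p under 0.05. Every member lies further left in blue, where Ctsb and Gusb are filled on the right of 0 and Ctsf, Scarb2 and Tfeb on the left.

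Called members were counted with and without a promoter match, without a test. With TMM scaling, 8 of the 15 members with CACGTG and 15 of the 23 matched members without it rose in ipsilateral sdCAMs, with median log2 fold changes of 0.55 and 0.56. Of the 7 members with TCACGTGA, 2 rose, namely Ctsa and Ctsd, as did 21 of the 31 without it. After pan-macrophage scaling neither Ctsa nor Ctsd was called.

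The sdCAM counts depended on the libraries and on the pairing of hemispheres. The 2 hemispheres came from the same mouse, and with the mouse as a block 17 members rose in the average, 8 in BLZ945 and 0 in CTL mice. All 6 mice with both sdCAM libraries had more Ctsb, Ctsc, Ctsz, Gusb and Cd68 ipsilaterally, and the ipsilateral over contralateral ratio was largest in C4, at 3.28, 3.37, 2.97, 3.63 and 4.12. These genes were picked from the members called in the same libraries. Of other called members, Hexa and Lipa were higher ipsilaterally in 4 of 6 mice, and Ctsd, Tpp1, Naglu and Grn in 5 of 6. Leaving out A4 or C4 gave 14 calls in the average. In BLZ945 mice 0 members were called without C3 or without C4, 4 without C2 and 8 without D1, and in CTL mice 2 were called without C4. Without C3 the average held 16 calls, and without only the contralateral libraries of C3 and C4, which had the highest choroid plexus markers, 16 were called in the average, 0 in BLZ945 and 2 in CTL mice. With all 16 sdCAM libraries, the degraded ones included, 0 members were called in any of these comparisons. The share of all genes called under each of these settings is not given here.

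The same comparison was made in tissue. Averaged over treatments, 6 of the 43 members tested rose in the ipsilateral hemisphere and 0 fell, where 2.53% of all 18968 genes tested rose and 0.517% fell. The median log2 fold change was 0.02 for the members and -0.01 for all genes. In BLZ945 mice Cd68, Ctsc, Ctsz and Gusb rose, compared with 1.26% of all genes rising and 0.1% falling, and in CTL mice Cd68 rose, compared with 0.485% and 0.00527%. Cd63 and Lgmn were called in addition in the average. With the mouse as a block, 8, 5 and 4 members rose in the average, in BLZ945 and in CTL mice. With the hemispheres of A3 as named in the count table, 0 members were called in any of these comparisons, and the single CTL call was also lost without A2, A3, A4, B1, C2 or D1. In BLZ945 mice 2 members were called without C2, C3 or D1. For these alternatives the share of all genes called is not given here.

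Cd68 in tissue was at 8.40, 11.6, 12.6 and 10.54 CPM contralaterally in A2, A3, A4 and B1 and at 18.6, 18.6, 19.4 and 21.4 ipsilaterally. In BLZ945 mice it was at 11.46, 9.09, 13.3 and 12.3 contralaterally in C2, C3, C4 and D1 and at 26.7, 40.4, 21.2 and 26.9 ipsilaterally. All 8 ipsilateral libraries lay above all 8 contralateral ones, with log2 fold changes of 0.86 in CTL (adjusted p = 0.039), 1.32 in BLZ945 (adjusted p = 0.000632) and 1.09 in the average (SE 0.12).

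Ctsc was likewise separated, at 6.69 to 12.4 CPM contralaterally and 13.4 to 33.2 ipsilaterally, with a log2 fold change of 1.09 (SE 0.15, adjusted p = 0.000391). Ctsz was at 37.4, 46.7, 46.5 and 38.5 CPM contralaterally and at 50.9, 64.2, 56.8 and 60.3 ipsilaterally in CTL mice. In BLZ945 mice it was at 51.6, 56.1, 50.1 and 44.2 contralaterally and at 77.5, 84.4, 59.2 and 72.5 ipsilaterally. Within each treatment the hemispheres did not overlap (log2 fold change 0.50, SE 0.081, adjusted p = 0.0013).

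Gusb in tissue was at 16.98 ± 1.76 and 22.4 ± 1.80 CPM in CTL and at 17.9 ± 2.68 and 25.7 ± 2.34 in BLZ945 mice, contralateral before ipsilateral (SD, n = 4 each), with a log2 fold change of 0.46 (SE 0.082, adjusted p = 0.0028). Cd63 was at 42.96, 48.4, 34.4 and 42.2 CPM contralaterally and at 62.2, 81.0, 45.6 and 74.5 ipsilaterally in CTL mice, and at 52.4, 28.2, 32.2 and 42.0 and at 104, 50.7, 61.9 and 75.7 in BLZ945 mice. It was higher ipsilaterally in 8 of 8 mice although the groups overlapped (0.78, SE 0.16, adjusted p = 0.0088). Lgmn rose by less, from 150 to 177 CPM on average in all 8 mice (0.24, SE 0.060, adjusted p = 0.038).

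Other members of tissue, among them the abundant Psap and Ctsb, did not pass the test. Psap was at 1993 ± 75.5 and 1853 ± 136 CPM in CTL and at 2054 ± 40.7 and 1837 ± 101 in BLZ945 mice, contralateral before ipsilateral (SD, n = 4 each), with a log2 fold change of -0.13 (95% interval -0.24 to -0.03, adjusted p = 0.18). Ctsb was at 744 ± 25.8 and 795 ± 53.0 CPM in CTL mice (SD, n = 4 each), with an average log2 fold change of 0.09 (95% interval -0.01 to 0.19). Those of Ctss, Ctsd, Lamp1, Lamp2, Laptm5, Lipa, Npc2, Hexa, Atp6v0d1, Tfeb and Grn lay between -0.07 and 0.21, none called. Atp6v0d2 had at most 2 counts in any tissue library and did not pass the filter. The 16 pan-macrophage genes had a median log2 fold change of 0.48 in tissue, with 10 called higher and 0 lower.

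**Figure D5:**
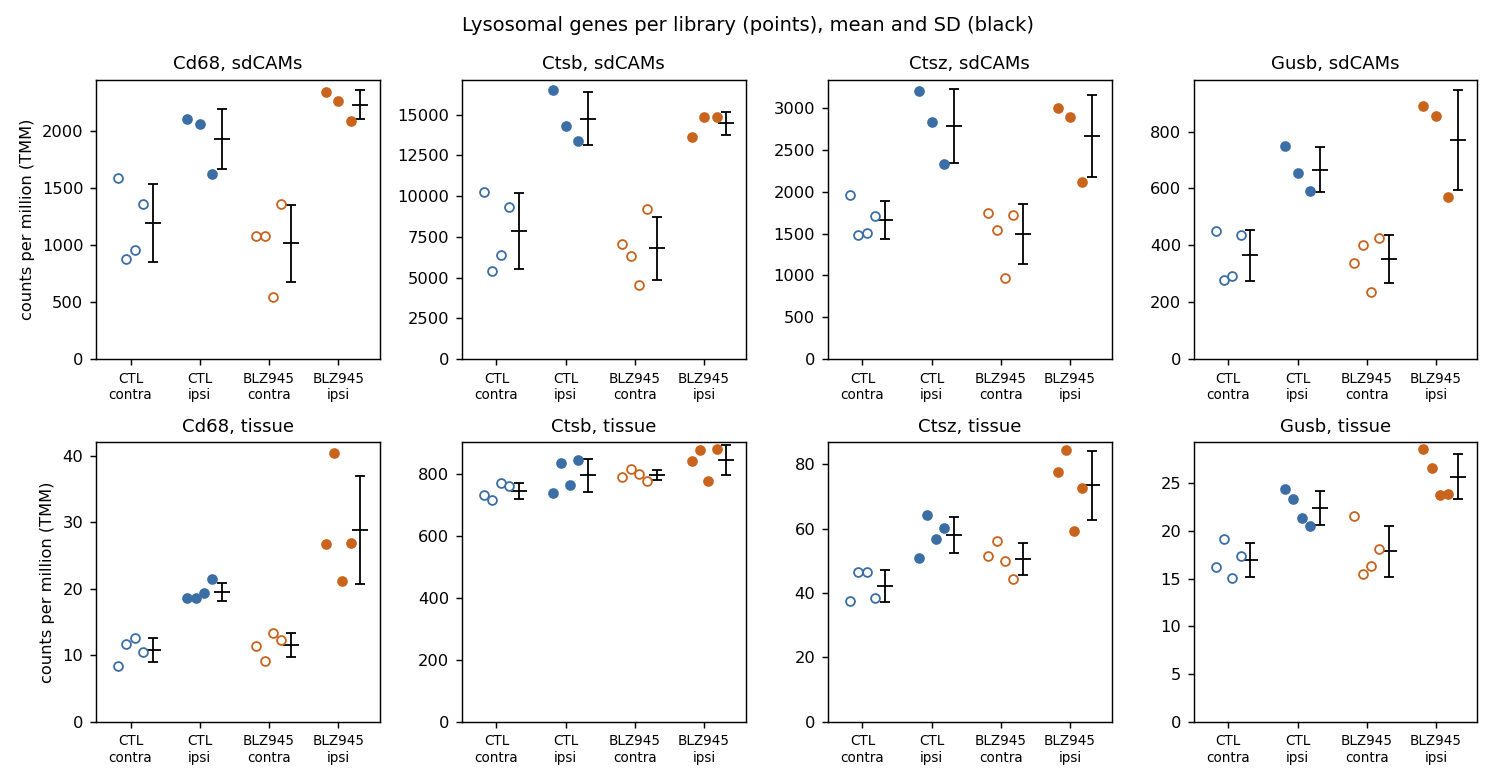
CPM of Cd68, Ctsb, Ctsz and Gusb in sdCAMs (top) and tissue (bottom) by group, points for libraries (open contralateral, filled ipsilateral), mean and SD in black. All 4 genes are separated by hemisphere within each treatment in sdCAMs, and Cd68, Ctsz and Gusb but not Ctsb in tissue, while after scaling to 16 pan-macrophage genes Cd68 and Ctsz are not called in sdCAMs.

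Repopulated and control mice were compared within each hemisphere. No member was called between BLZ945 and CTL in edgeR, nor in the interaction of treatment and hemisphere, and neither was any other gene (0% of all genes in each of these comparisons). DESeq2 called 0 members in these comparisons as well. Members at an unadjusted p under 0.05, here and for the interaction below, are not calls. The share of all genes at that level is not given here. In ipsilateral tissue 3 members passed an unadjusted p under 0.05, namely Cd68 (0.56, 95% interval 0.20 to 0.92), Ctsc (0.49, 0.05 to 0.93) and Ctsz (0.34, 0.10 to 0.58), all higher in BLZ945 mice. In contralateral tissue 2 did, Ctss (0.33, 0.08 to 0.58) and Ctsz (0.26, 0.02 to 0.50). In contralateral sdCAMs 4 did, Gla (1.49, 0.59 to 2.40) and Atp6v1a (0.55, 0.19 to 0.90) higher and Lgmn (-0.43, -0.86 to -0.003) and Hexa (-0.52, -1.002 to -0.031) lower in BLZ945 mice. In ipsilateral sdCAMs 1 did, Lipa (0.50, 0.02 to 0.98).

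Gla, the alpha-galactosidase of globotriaosylceramide breakdown, was at 19.1, 6.29, 10.8 and 16.3 CPM in contralateral sdCAMs of CTL and at 43.1, 15.5, 32.9 and 56.4 in those of BLZ945 mice, overlapping through C3. Ipsilaterally it was at 35.9 ± 12.3 in CTL and 37.4 ± 7.63 in BLZ945 mice (SD, n = 3 each). Gla and Lipa were the 2 sdCAM members at an unadjusted p under 0.05 in the interaction, at -1.44 (95% interval -2.79 to -0.08) and 0.71 (0.08 to 1.34), and in tissue 0 members were. In the interaction the median SE over members was 0.34 in sdCAMs and 0.15 in tissue.

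A further 109 lysosomal genes, listed by function, were examined beside the members. In the average of both treatments, 23 of them rose and 3 fell in ipsilateral sdCAMs with TMM scaling, with a median log2 fold change of 0.35, whereas with the pan-macrophage scaling 0 rose, 27 fell and the median was -0.29, where 27.4% of all genes fell and their median was -0.81. Among 28 other hydrolases 11 rose with TMM scaling, with Siae (0.84), Pla2g15 (0.81) and Asah1 (0.78), which act on sialic acid esters, phospholipids and ceramide, and the sphingomyelinase gene Smpd1 fell (-0.67). Of the 15 genes of enzyme delivery 6 rose, led by Nagpa (0.89), which uncovers the mannose 6-phosphate tag. Of 14 other pump subunits Atp6v0a1 (0.70) and Atp6v0a2 (0.63) rose and Atp6v0e2 (-3.42) fell. With TMM scaling none of the 16 TFEB relatives and genes of nutrient sensing was called. At an unadjusted p under 0.05 there were 8 of them, a level whose share of all genes is not given here. Also with TMM, 4 of 28 other membrane proteins and transporters rose (Slc15a3, Slc29a3, Mfsd1 and Hgsnat), and among 8 cathepsin inhibitors Stfa2l1 fell.

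In tissue 3 of 105 further lysosomal genes tested rose and 2 fell in the average of both treatments, where 2.53% of all genes rose and 0.517% fell. Cst7, an inhibitor of cysteine cathepsins, rose most (2.701, SE 0.44), from 0.207 to 1.32 CPM. Its contralateral mean lay below the level of 3 counts in a contralateral tissue library, 0.235 to 0.319 CPM, so this fold change rests on very few counts. The peptide transporter gene Slc15a3 (2.21, SE 0.24) and the metal transporter gene Slc11a1 (1.04, SE 0.16) rose, and Tpcn1 (-0.32) and Arsb (-0.18) fell. None of the 14 other pump subunits, the 16 TFEB relatives and genes of nutrient sensing or the 15 genes of enzyme delivery was called in tissue.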

How the data were processed

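Bulk RNA-seq was analyzed from 16 whole-tissue and 16 sorted macrophage samples. The authors deposited raw read counts per gene. The submitters' processing notes name bcl2fastq 2.20, STAR 2.7.11a, featureCounts 2.0.8 and DESeq2 1.46.0, while the strand setting and the genome build of these libraries are not given in the sources used here, so genes were matched by symbol. Members and gene lists were chosen with earlier results of these data known, and the pan-macrophage genes and the omission of the contralateral C3 and C4 libraries after values had been seen.

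After a filter on the sum of each gene's counts (minimum 8 in tissue, 7 in sdCAMs and 15 in both together), the data were fitted with edgeR 4.0.16 (R 4.3.3), with TMM scaling, quasi-likelihood tests over 4 groups of treatment and hemisphere and Benjamini-Hochberg adjustment over all genes tested. The fit of sdCAMs against tissue held 8 groups of sample type, treatment and hemisphere. Intervals are 95% intervals of the fit. Alternatives were DESeq2 1.42.0, its size factors, other filters, a fold limit, the mouse as a block, leaving out each mouse, all 16 sdCAM libraries, and the other reading of the A3 hemispheres. The fits were tested on simulated data. Hemispheres of a mouse are paired by origin, and their deviations from the group means correlated at 0.21 to 0.65 in tissue and 0.045 to 0.19 in sdCAMs. No libraries were identical. The list of pan-macrophage genes holds a gene that is not reported here by name. Members shown in detail were those called in a hemisphere comparison and a set named for their role. P-values of the main fits measure the spread between the libraries of a group, each from another mouse. These fits treat the hemispheres and sample types of a mouse as independent, and only the block fits use the pairing. Counts of 0 allow up to 3 counts per library, for counting error only.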

Additional observations from a re-analysis of the deposited data

Results flagged for a closer look

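In groups of 4 libraries, the lowest or highest library of a member was compared with the others by its gap to the nearest one, as a share of the group's range, and 10 of 177 such checks, on 29 members and their summed share, passed Dixon's limit at 95%. Chance alone gives about 1 in 20. In contralateral sdCAMs of BLZ945 mice, C4 was lowest for Lgmn (1392 CPM, the others 2453 to 2530, gap 0.932), Tpp1 (gap 0.89) and Ppt1 (gap 0.863). The same library had the highest choroid plexus markers, and their part in these values was not tested. In contralateral sdCAMs of CTL mice B1 alone held counts of Atp6v0d2, 6 in all (gap 1).

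In tissue, C2 was highest in the BLZ945 ipsilateral group for Ctsl (gap 0.955) and Lamp2 (gap 0.924), neither of which was called. D1 was lowest for Laptm5 in the BLZ945 contralateral group (gap 0.883). In CTL mice A4 was highest for Hexa contralaterally (gap 0.921), B1 was lowest for Gaa ipsilaterally (gap 0.903), and A3 was lowest for Atp6v0d2 ipsilaterally (gap 0.883), a gap that rests on counts of 0 and 1 and says nothing of a difference. None of the 56 members and tissue types checked moved one way in every CTL mouse and the other way in every BLZ945 mouse.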

How the results depend on the processing

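The number of members called moved with the scaling, the libraries, the labels of A3 and, in CTL mice, the test. After scaling the sdCAM libraries to the 16 pan-macrophage genes, an alternative added after seeing the data, 2 members were higher and 3 lower in the average of treatments, and 0 higher and 4 lower in BLZ945 mice. The log2 fold change turned negative in the average for Ctsd (-0.084), Cd63 (-0.19), Lamp1 (-0.16), Lamp2 (-0.13), Lipa (-0.13), Hexa (-0.079), Gaa (-0.17) and Glb1 (-0.068), and in BLZ945 mice for Ctsz (-0.024), Lipa (-0.015) and Atp6ap1 (-0.18). With all 16 sdCAM libraries 0 were higher in BLZ945 mice and 0 in the average. Without the contralateral libraries of C3 and C4, also added later, 2 were higher in CTL and 0 in BLZ945 mice.

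With the A3 hemispheres as in the count table, 0 tissue members were higher in CTL, in BLZ945 and in the average. With the mouse as a replicate block, 4 were higher in CTL tissue and 8 in BLZ945 sdCAMs, and no other count moved by over 1.5 times. DESeq2 called 3 higher in CTL tissue, 10 higher in CTL sdCAMs and 8 lower in ipsilateral sdCAMs than in tissue, as did its size factors (8). The filterByExpr filter gave 1 in CTL sdCAMs. A log2 fold change beyond 0.59 left 2 in BLZ945 tissue, 3 in the tissue average and 4 lower in contralateral sdCAMs than in tissue. The cause of these shifts was not tested. Except for the pan-macrophage scaling, the counts here and below are given without the share of all genes called in the same fit.

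Leaving out each mouse gave 0 to 1 higher members in CTL tissue, 2 to 5 in BLZ945 tissue and 5 to 6 in the tissue average, and in sdCAMs 0 to 2 in CTL, 0 to 13 in BLZ945 and 14 to 22 in the average. Against tissue, 32 to 32 were higher and 6 to 8 lower contralaterally, and 33 to 34 higher and 4 to 5 lower ipsilaterally. With 3 or 4 libraries per group, the 95% intervals limit which differences could be seen.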
